A study of Rattus norvegicus with 13 samples.

Results

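Expression of 10 neuronal migration genes, those of the reelin signaling pathway and the main lissencephaly genes, was examined in the posterior ventricular zone (VZ) of newborn rats. The genes were chosen by name, with earlier results of these data known. They are the ligand *Reln*, its receptors *Vldlr* and *Lrp8*, the adaptor *Dab1*, the microtubule and dynein genes *Dcx*, *Pafah1b1*, *Nde1* and *Ndel1*, and the kinase *Cdk5* with its activator *Cdk5r1*. Each of the 10 names was found once among the 14716 rows of the deposited table, and all 10 were among the 14606 rows kept after low rows were removed. The rows of the 10 genes carry Ensembl transcript identifiers, whereas the study names a RefSeq annotation. Whether a value covers only the listed transcript or all products of the gene was not determined.

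The comparison addresses what developmental hypothyroidism does to transcript levels in this germinal layer. RNA-Seq was performed on VZ tissue cut by laser capture microdissection from both hemispheres of male Long Evans pups on postnatal day (PN) 2, with 1 pup per litter. PTU exposed pups (n = 6) came from dams given 3 ppm 6-propyl-2-thiouracil, an inhibitor of thyroid hormone synthesis, in deionized drinking water from gestational day 6, and control pups (n = 7) came from dams given deionized water (0 ppm). The cut followed tissue morphology and not a marker, so neighbouring cells could be captured with the epithelium, and the exposure reached the pup through the dam and was not confined to any cell type.

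Reelin is a large secreted glycoprotein, made in the developing cortex mainly by Cajal-Retzius cells, that binds the VLDL receptor and ApoER2 (encoded by *Lrp8*) on migrating neurons and leads to phosphorylation of DAB1. Doublecortin, LIS1 (encoded by *Pafah1b1*), NDE1 and NDEL1 act on microtubules and the dynein motor that moves the nucleus of a migrating cell, and CDK5 with its activator p35 (encoded by *Cdk5r1*) phosphorylates several of these proteins. Mutations of *RELN*, *DCX*, *PAFAH1B1* and *NDE1* cause lissencephaly, a smooth brain surface that follows failed neuronal migration.

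The estimated depth was 22295621 to 44388485 reads per pup, with a median of 35213421 in control and 34261616 in PTU exposed pups. The 3 highest rows held 23.9 to 60.1% of a pup's values, with a median of 50.9% in control and 35.8% in PTU exposed pups. This share is part of the total to which pups were scaled in an alternative below. The captured tissue expressed the radial glial genes *Sox2* (5761 to 8384 normalized counts in control and 5209 to 8028 in PTU exposed pups) and *Pax6* (2645 to 3538 and 1423 to 2875). PTU exposed pup 1 stood apart from the other pups. Its median correlation with the others over all rows was 0.936, against 0.955 or more for every other pup, and its neuron marker score, the mean centred log2 level of 12 genes, was 1.61 against 0.609 or less elsewhere. The values of the 10 genes, their ratios and the counts of the pathway lists are therefore given with and without this pup.

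None of the 10 genes was called at an adjusted p of 0.05 or less (limma), and none of the 14606 rows was (0%). The smallest adjusted p in limma was 0.174 among the 10 genes and 0.0981 over all rows. With DESeq2, a different model that was not used here, the study did report differentially expressed genes in these pups at a q-value of 0.05 or less, *Actg1* among them. On the log2(normalized count + 1) scale, the PTU group had higher levels of 7 of the 10 genes and lower levels of 3, with a median difference of 0.15, against 0.0038 over all rows. An unadjusted p under 0.05 was obtained for 5 of the 10 genes, against 16.3% of all rows. These were 4 with higher levels, *Pafah1b1*, *Cdk5r1*, *Dcx* and *Vldlr*, where 8.11% of all rows had a higher level and such a p, and 1 with a lower level, *Lrp8*, where the share was 8.2%. Because the 10 genes were chosen with earlier results of these data known, the count describes them and is not a test of enrichment. The values of the control and PTU exposed pups overlapped for each of the 10 genes, and 0.596% of all rows had groups that did not overlap.

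**Figure D1:**
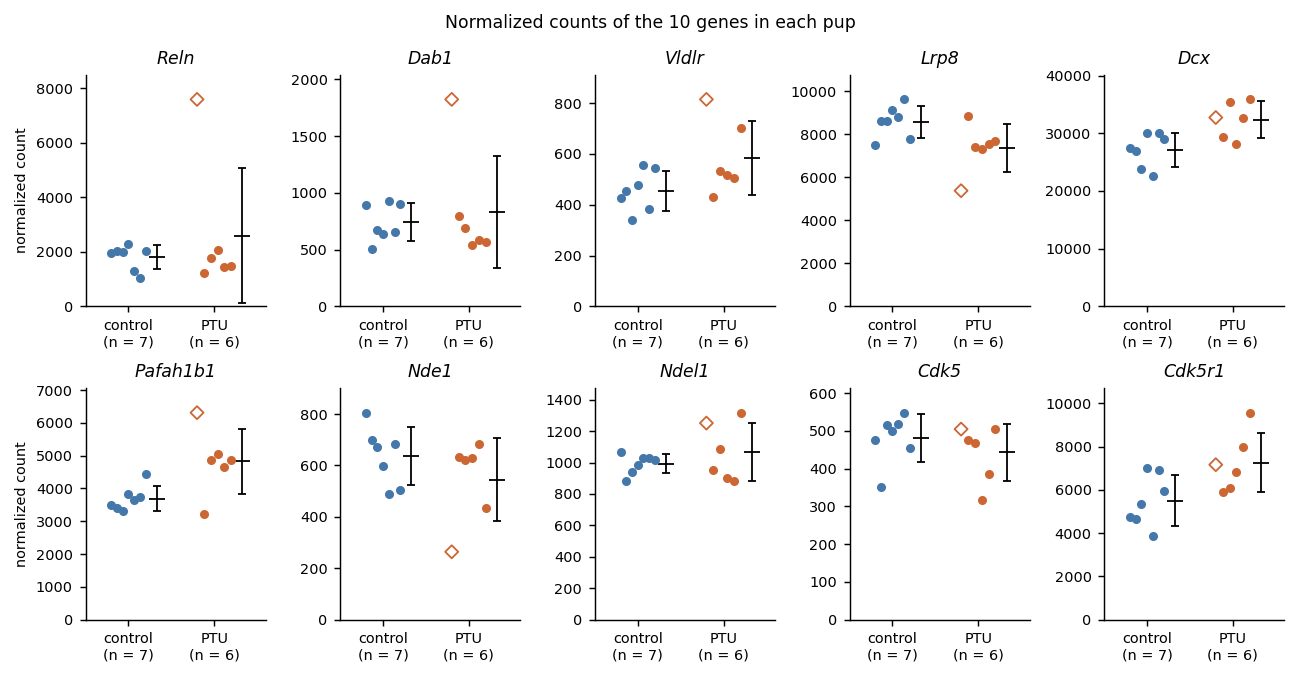
Normalized counts (vertical axes, from 0) of the 10 genes in each control pup (blue, n = 7) and PTU exposed pup (orange, n = 6). Open diamonds are PTU exposed pup 1, and black marks give the mean ± SD of a group. *Reln* stood at 7593 in PTU exposed pup 1 and between 1038 and 2274 in every other pup, while *Dcx* was above the mean of the controls in 6 of the 6 exposed pups.

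Without PTU exposed pup 1, 5 of the 10 genes were higher and 5 lower with a median difference of -0.02, and 3 of them (*Dcx*, *Pafah1b1* and *Cdk5r1*) had an unadjusted p under 0.05, against 14.3% of all rows. The count was also 3 without control pup 6. Without PTU exposed pup 2, 1 of the 10 genes, *Pafah1b1*, was called by limma (adjusted p = 0.0324), as 1 of 179 rows called in all. When each pup was instead scaled to the same total, the median difference of all rows became 0.204, 8 of the 10 genes were higher and 2 lower with a median difference of 0.36, against 78.5% of all rows higher, and 4 of the 10 had an unadjusted p under 0.05, against 11.4% of all rows (1584 higher and 81 lower). Since tissue and not single cells was sequenced, a lower value from fewer cells of a type cannot be told apart from less RNA per cell.

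**Figure D2:**
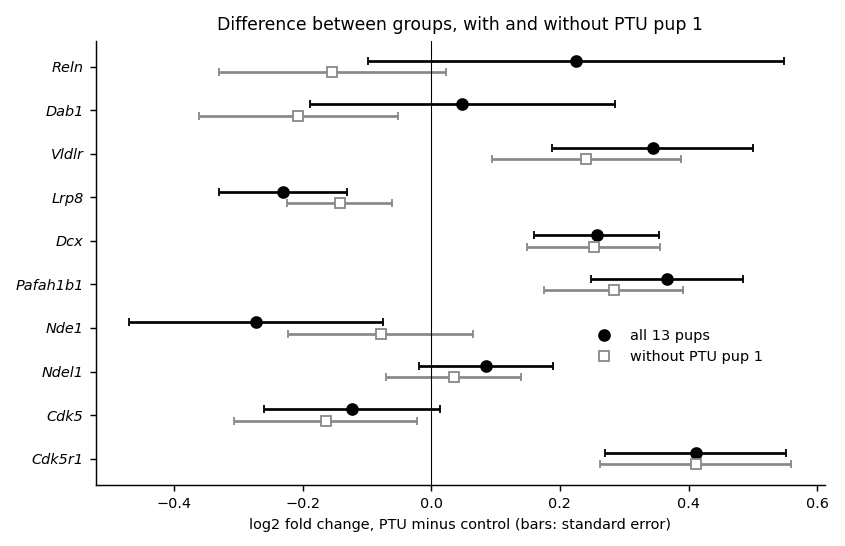
Log2 fold change (PTU exposed minus control, horizontal axis) of the 10 genes with its standard error from limma, over all 13 pups (filled circles) and without PTU exposed pup 1 (open squares). *Reln* moved from 0.22 to -0.15 and *Dab1* from 0.05 to -0.21 when the pup was left out, while *Cdk5r1* stayed at 0.41 and *Dcx* at about 0.25.

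To show the sequence around the starts of these genes, RefSeq windows of 250 bases upstream of an annotated start (build GRCr8, not the mRatBN7.2 build used for the reads) were read for 8 of the 10 genes, in 9 windows. They were searched on both strands for AGGTCA, the half-site that thyroid hormone receptors bind, and for GGGCGG, the GC box. In the windows printed here the matches lie apart from each other. AGGTCA was found in 1 of the 9 windows, that of *Dab1*, against 14.1% of 33469 windows of all genes, and GGGCGG in 7 of 9, against 30.5%. GC content was above the median of all windows, 51.2%, in 7 of the 9. The window of *Nde1* had 36.0% GC and that of *Dcx* 44.0%, whereas that of *Cdk5r1* had 80.4% and that of *Reln* 80.0%. The sequences below, 5′ to 3′ with matches in capitals, show the GC-rich *Reln* window, up to the first annotated base of the gene (chr4:13628318-13628439, plus strand), the *Dab1* window with the half-site (chr5:124369254-124369503, plus strand) and the *Dcx* window, which holds neither (chrX:112304162-112304411, minus strand).
Reln: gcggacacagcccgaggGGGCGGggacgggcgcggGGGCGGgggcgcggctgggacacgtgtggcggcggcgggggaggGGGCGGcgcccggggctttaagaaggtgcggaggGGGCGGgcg
Dab1: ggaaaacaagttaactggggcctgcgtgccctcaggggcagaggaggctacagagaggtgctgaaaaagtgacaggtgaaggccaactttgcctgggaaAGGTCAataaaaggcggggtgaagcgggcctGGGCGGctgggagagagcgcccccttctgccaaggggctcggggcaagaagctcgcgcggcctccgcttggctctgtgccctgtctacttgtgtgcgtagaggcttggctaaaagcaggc
Dcx: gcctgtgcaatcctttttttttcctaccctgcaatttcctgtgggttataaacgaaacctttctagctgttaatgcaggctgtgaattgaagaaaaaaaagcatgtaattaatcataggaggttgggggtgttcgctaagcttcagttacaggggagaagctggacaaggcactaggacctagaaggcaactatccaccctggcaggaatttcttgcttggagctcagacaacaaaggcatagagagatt
A match is a stretch of letters and not a measured binding site, and no binding was measured here.

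*Reln* (ENSRNOT00000010521), the ligand, had normalized counts from 1038 to 2274 in control pups, with a median of 2001. In PTU exposed pups they ran from 1237 to 7593, with a median of 1627. The highest value belonged to PTU exposed pup 1, and the other 5 lay within the control range. The means were 1805 ± 448 (SD, n = 7) in control and 2595 ± 2465 (SD, n = 6) in PTU exposed pups, and the log2 fold change was 0.22 ± 0.32 (SE; limma, adjusted p = 0.759). With that pup left out, the mean was 1595 ± 319 (SD) and the log2 fold change was -0.15 ± 0.18 (limma, adjusted p = 0.716), so the direction of the difference depended on it.

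Markers of the reelin-producing Cajal-Retzius cells stood high in the same pup. Of 8 such genes listed, 4 were analysed here (*Trp73*, *Lhx1*, *Lhx5* and *Ebf3* were not). *Calb2*, which encodes calretinin, was 371 in PTU exposed pup 1 and at most 246 in the other PTU exposed pups and 233 in control pups. *Ndnf* was 740 there and at most 236 and 110, *Nhlh2* was 291 and at most 98.3 and 159, and *Cacna2d2* was 989 and at most 651 and 399. The summed level of the 4 genes ran from 469 to 806 in control pups and from 630 to 2391 in PTU exposed pups, and none was at 0 in any pup. Between the groups 3 were higher and 1 lower after PTU exposure, 2 and 0 with an unadjusted p under 0.05 (limma). None was called, and the median log2 fold change was 0.55. Without PTU exposed pup 1, 2 were higher and 2 lower, 1 and 1 with such a p, with a median of 0.17. Of the 12 neuron markers, 10 were highest of all pups in PTU exposed pup 1, while *Elavl3* (5605, against up to 6965 in another PTU exposed pup) and *Elavl4* (2970, the lowest of the PTU group) were not. The part of these cells in the *Reln* value was not tested.

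*Dab1* (ENSRNOT00000111283), the intracellular adaptor that reelin signaling phosphorylates, followed *Reln* in that pup. Its normalized counts lay between 505 and 929 in the control group, with a median of 677, and between 542 and 1825 in the PTU group, with a median of 636. PTU exposed pup 1 held the highest value, and the other 5 lay between 542 and 797, inside the control range. The log2 fold change was 0.05 ± 0.24 (limma, adjusted p = 0.939), and without PTU exposed pup 1 it was -0.21 ± 0.15 (limma, adjusted p = 0.545).

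The receptors differed in opposite directions, without a call for either. *Vldlr* (ENSRNOT00000035814), the VLDL receptor, lay between 341 and 556 in the control group, with a median of 455, and between 430 and 815 in the PTU group, with a median of 526. PTU exposed pups 1 and 6, at 815 and 703, were above all control pups, and the other 4 were not. The mean was 455 ± 79.6 (SD) in control and 584 ± 144 (SD) after PTU exposure, so that the log2 fold change was 0.34 ± 0.16 (limma, unadjusted p = 0.0420, adjusted p = 0.292). An exact permutation test of *Vldlr* gave p = 0.0653. *Lrp8* (ENSRNOT00000017575), the ApoER2 receptor, lay between 7509 and 9623 in the control group, with a median of 8621, and between 5377 and 8851 in the PTU group, with a median of 7486. It was below the mean of the controls in 5 of the 6 exposed pups and below all control pups in 3 of them. The mean was 8577 ± 734 (SD) against 7365 ± 1122 (SD), a log2 fold change of -0.23 ± 0.10 (limma, unadjusted p = 0.0334, adjusted p = 0.273). The exact permutation test of *Lrp8* gave p = 0.0321. Leaving out PTU exposed pup 1, which had the highest *Vldlr* and the lowest *Lrp8*, gave log2 fold changes of 0.24 and -0.14, with limma adjusted p-values of 0.457 and 0.428. With each pup scaled to the same total, that of *Lrp8* was -0.03 and that of *Vldlr* 0.55, where all rows had a median of 0.204.

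The ratio of the receptors within a pup does not depend on the scaling between pups. The log2 ratio of *Lrp8* to *Vldlr* was 4.25 ± 0.31 (SD, n = 7) in control pups, from 3.83 to 4.65, and 3.67 ± 0.55 (SD, n = 6) in PTU exposed pups, from 2.72 to 4.36. It was below the mean of the controls in 5 of the 6 exposed pups. The difference was -0.57 with p = 0.0297 in an exact permutation test (two-sided, 1716 regroupings), and 0.0743 after Benjamini-Hochberg adjustment over the 5 ratios examined. It was -0.38 without PTU exposed pup 1 (exact permutation p = 0.0758, adjusted 0.189) and -0.71 without pup 2 (adjusted exact permutation p = 0.0189). The *Reln* to *Dab1* ratio differed by 0.18 on the log2 scale (exact permutation p = 0.548), and by 0.05 without PTU exposed pup 1.

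*Dcx* (ENSRNOT00000074322) encodes doublecortin, a microtubule binding protein of migrating neurons. Its normalized counts lay between 22515 and 30060 in the control group, with a median of 27391, and between 28083 and 35882 in the PTU group, with a median of 32684. All 6 PTU exposed pups were above the control mean, and 4 were above every control pup. The means were 27117 ± 2956 (SD) and 32363 ± 3153 (SD), a log2 fold change of 0.26 ± 0.10 (limma, unadjusted p = 0.0169, adjusted p = 0.217), and an exact permutation test gave p = 0.0122. The difference was 0.25 without PTU exposed pup 1 (exact permutation p = 0.0253).

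*Pafah1b1* (ENSRNOT00000003696) encodes LIS1, the dynein regulator. It lay between 3307 and 4438 in the control group, with a median of 3640, and between 3230 and 6312 in the PTU group, with a median of 4865. PTU exposed pups split, with 5 above every control pup and 1, pup 2, below every control pup. The means were 3693 ± 379 (SD) and 4829 ± 984 (SD), and the log2 fold change was 0.37 ± 0.12 (limma, unadjusted p = 0.00663, adjusted p = 0.174). An exact permutation test gave p = 0.0198, and 0.0480 without PTU exposed pup 1, where the log2 fold change was 0.28. It was 0.48 without PTU exposed pup 2, and this is the only gene of the 10 that limma then called (adjusted p = 0.0324).

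*Nde1* and *Ndel1* encode related partners of LIS1, of which NDE1 also serves the mitotic spindle of dividing progenitors. *Nde1* (ENSRNOT00000086392) lay between 487 and 805 in the control group, with a median of 671, and between 264 and 683 in the PTU group, with a median of 626. PTU exposed pups 1 and 6, at 264 and 435, were below all control pups. The log2 fold change was -0.27 ± 0.20 (limma, adjusted p = 0.50) and -0.08 without PTU exposed pup 1. It was -0.07 with each pup scaled to the same total, where all rows had a median of 0.204. *Ndel1* (ENSRNOT00000111866) lay between 882 and 1068 in the control group, with a median of 1019, and between 883 and 1317 in the PTU group, with a median of 1017. PTU exposed pups 1, 3 and 6 were above all control pups while the other 3 were below the control mean, so the spread was wider (coefficient of variation 17.4% against 6.34%) and the log2 fold change was 0.08 ± 0.10 (limma, adjusted p = 0.713), and 0.03 without PTU exposed pup 1. The *Ndel1* to *Nde1* ratio was 0.66 ± 0.29 (SD) in control and 1.02 ± 0.74 (SD) in PTU exposed pups on the log2 scale, a difference of 0.36 (exact permutation p = 0.294, adjusted 0.490). It was highest in PTU exposed pups 1 and 6, at 2.24 and 1.6, and the difference was 0.11 without pup 1. The *Dcx* to *Pafah1b1* ratio differed by -0.11 (exact permutation p = 0.408), and by -0.03 without PTU exposed pup 1.

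The kinase and its activator also differed in direction. *Cdk5* (ENSRNOT00000095452) lay between 353 and 548 in the control group, with a median of 501, and between 318 and 506 in the PTU group, with a median of 473, with 5 of the 6 PTU exposed pups inside the control range. The log2 fold change was -0.12 ± 0.14 (limma, adjusted p = 0.676), and between -0.20 and -0.03 with any 1 pup left out (-0.16 without PTU exposed pup 1 and -0.03 without pup 4). It was 0.08 when each pup was scaled to the same total, where all rows had a median of 0.204. *Cdk5r1* (ENSRNOT00000119428), which encodes the neuronal activator p35, lay between 3867 and 6988 in the control group, with a median of 5325, and between 5902 and 9566 in the PTU group, with a median of 6994. All 6 PTU exposed pups were above the control mean and 3 were above every control pup. The means were 5488 ± 1179 (SD) and 7252 ± 1361 (SD), a log2 fold change of 0.41 ± 0.14 (limma, unadjusted p = 0.00950, adjusted p = 0.179). An exact permutation test gave p = 0.0274, and 0.0530 without PTU exposed pup 1, where the log2 fold change was again 0.41.

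The log2 ratio of *Cdk5r1* to *Cdk5* was 3.49 ± 0.32 (SD, n = 7) in control pups, from 2.90 to 3.80, and 4.03 ± 0.35 (SD, n = 6) in PTU exposed pups, from 3.63 to 4.42. It was above the mean of the controls in 6 of the 6 exposed pups, and PTU exposed pups 4, 5 and 6 had the highest ratios. The difference was 0.53 (exact permutation p = 0.0192, adjusted 0.0743). It was 0.58 without PTU exposed pup 1 (adjusted exact permutation p = 0.139) and 0.61 without PTU exposed pup 2 (adjusted exact permutation p = 0.0221). None of the 5 ratios passed an adjusted p of 0.05 over all 13 pups.

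**Figure D3:**
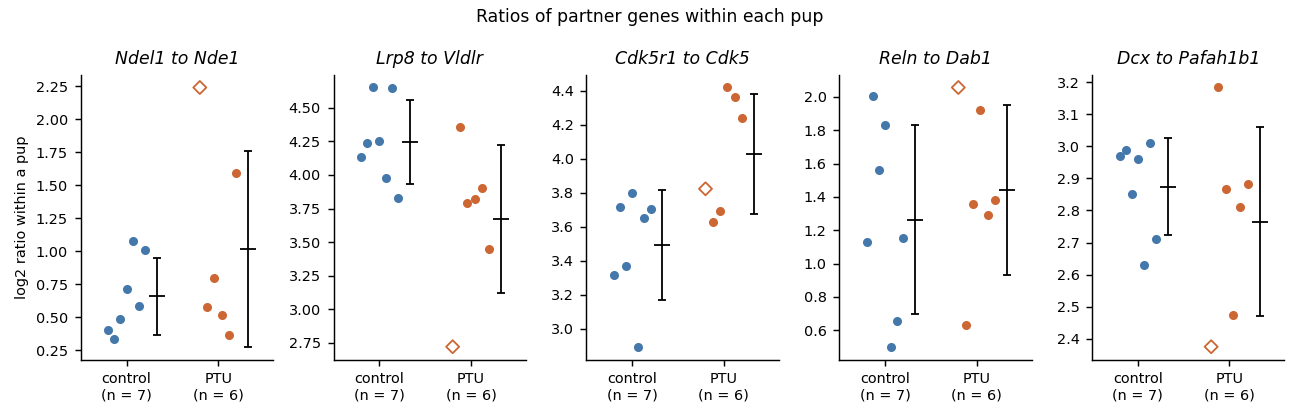
Log2 ratio of partner genes within each control pup (blue, n = 7) and PTU exposed pup (orange, n = 6; open diamond, pup 1), with the mean ± SD of a group in black. The vertical axes do not start at 0. The *Cdk5r1* to *Cdk5* ratio averaged 3.49 in control and 4.03 in PTU exposed pups, and the *Lrp8* to *Vldlr* ratio 4.25 and 3.67.

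Marker genes of cell types in and around the VZ were examined beside these genes. Of 12 neuron markers, 11 were higher in PTU exposed pups, 4 of them with an unadjusted p under 0.05 (limma) and none called, and their summed level ran from 18034 to 27415 normalized counts in control and from 22476 to 59351 in PTU exposed pups. Without PTU exposed pup 1, 10 of 12 were higher, 3 with such a p, and the median log2 fold change was 0.24 in place of 0.42. All 11 radial glia markers analysed were lower, 8 with an unadjusted p under 0.05 and none called, with sums of 112411 to 152954 and 92090 to 123732. All 9 choroid plexus markers were lower, 5 with such a p and none called, with sums of 49090 to 138374 and 22952 to 98234. Without PTU exposed pup 1, all markers of both lists were still lower, 6 and 6 of them with such a p. All 7 interneuron markers analysed were higher (2 with such a p) and 6 of 7 intermediate progenitor markers were lower (1 with such a p), again with none called. With PTU exposed pup 1 left out, 5 of the 7 interneuron markers had such a p and their median log2 fold change was 0.40 in place of 0.23, while 5 of the 7 intermediate progenitor markers were lower, 2 with such a p. The remaining lists were those of mitosis (6 higher and 4 lower, 1 with such a p, median 0.03, or 0.13 without PTU exposed pup 1), microglia (4 and 2, 1 with such a p, median 0.04) and endothelium (4 and 2, 0 with such a p, median 0.17). Of 5 ependyma markers 4 were lower (2 with such a p, median -0.06), against 2 of 5 (1 with such a p, median 0.0079) without PTU exposed pup 1, and all 5 oligodendrocyte precursor markers were higher (1 with such a p, median 0.24). No marker of the neuron, radial glia and choroid plexus lists was at 0 in any pup. The part of tissue composition in the values of the 10 genes was not tested.

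**Figure D4:**
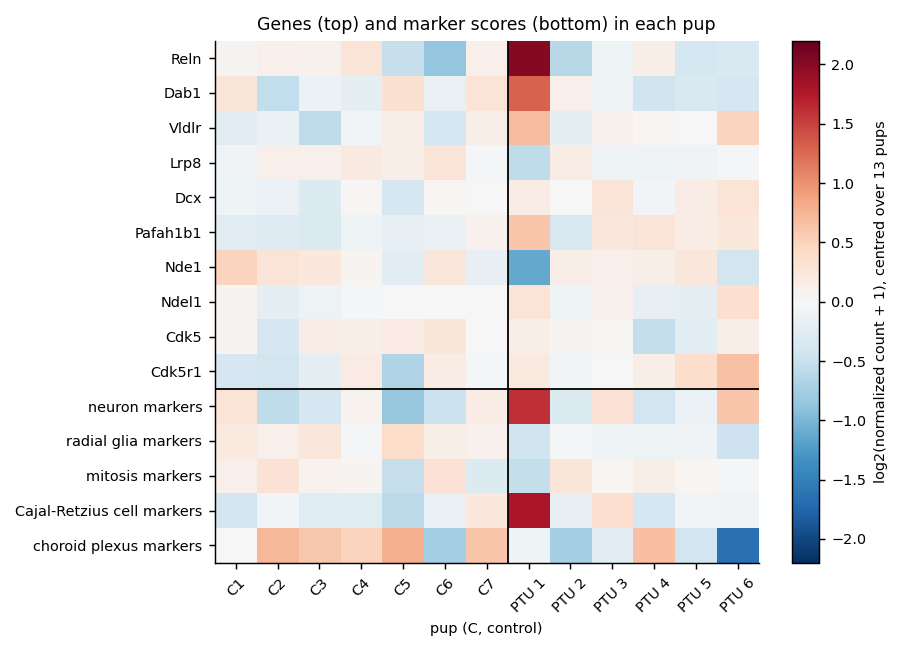
Log2(normalized count + 1), centred over the 13 pups, of the 10 genes (top rows) and the mean of the same quantity over markers of 5 cell types or states (bottom rows) in each pup (columns, C for control). PTU exposed pup 1 was high for *Reln*, *Dab1*, neuron and Cajal-Retzius markers (scores of 1.61 and 1.80) and low for *Nde1*, and PTU exposed pup 6 had the lowest choroid plexus score (-1.63).

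Among pups of the same group, 40 relations were examined: 10 between partner genes and each of the 10 genes with the neuron, radial glia and mitosis marker scores. With group means removed, 14 had an unadjusted permutation p under 0.05 and 2 an adjusted p of 0.05 or less, both with the score of 10 mitosis genes. *Nde1* was higher in pups with a higher mitosis score (Pearson's r = 0.818, permutation p = 0.00109, adjusted p = 0.0274; Spearman's rho = 0.676, permutation p = 0.00929, adjusted p = 0.158). *Vldlr* was lower in such pups (r = -0.787, permutation p = 0.00137, adjusted p = 0.0274; rho = -0.736, permutation p = 0.00587, adjusted p = 0.158), although r was 0.212 with each pup scaled to the same total. Without control pup 5 and PTU exposed pup 1, which lay farthest from the median score, r was 0.623 for *Nde1* and -0.612 for *Vldlr*. With only PTU exposed pup 1 left out, the adjusted permutation p-values were 0.119 and 0.123, with r of 0.724 and -0.682. With any 1 pup left out, r ran from 0.724 to 0.846 for *Nde1* and from -0.849 to -0.682 for *Vldlr*, and the adjusted p-values ran from 0.0116 to 0.119 and from 0.006 to 0.123.

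The wider pathways were described by 5 lists of genes around the 10, of which 95 of 97 genes were tested (*Dclk1* and *Tuba1a* were not analysed here). Of the 95, the PTU group had higher levels of 73 and lower levels of 22, none was called, and 19 had an unadjusted p under 0.05 in limma (20%, against 16.3% of all rows), 17 higher and 2 lower. The median log2 fold change was 0.07. Without PTU exposed pup 1, 62 of the 95 were higher and 33 lower, with a median of 0.06, and 14 had such a p (14.7%, against 14.3% of all rows), 12 higher and 2 lower. Neuronal genes are among the listed genes, and 11 of the 12 neuron markers above were higher too. The part of neuronal content in these counts was not tested.

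Reelin transduction holds the kinases, adaptors and degradation factors downstream of DAB1. Of its 27 genes, 16 were higher and 11 lower, 3 and 1 of them with an unadjusted p under 0.05, and the median was 0.02, or -0.02 without PTU exposed pup 1, where 12 were higher and 15 lower, 2 and 1 with such a p. *Cul5*, the ubiquitin ligase subunit that turns over phosphorylated DAB1, was 1068 ± 160 normalized counts (SD) in control and 1350 ± 106 (SD) in PTU exposed pups (log2 fold change 0.35; limma, adjusted p = 0.148). *Fyn*, the kinase that phosphorylates DAB1, ran from 2772 to 3687 and from 3370 to 4004, above the mean of the controls in 6 of the 6 exposed pups (0.20; limma, adjusted p = 0.236). The adaptors *Crk* and *Crkl* differed by -0.03 and 0.03. *Cdh2*, which encodes N-cadherin, ran from 13370 to 14955 in control and from 10286 to 13753 in PTU exposed pups. Of the exposed pups, 5 were below every control pup (log2 fold change -0.21, limma adjusted p = 0.216). With each pup scaled to the same total, the difference was -0.0071 (limma, adjusted p = 0.989), where all rows had a median of 0.204.

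Of the 28 genes of LIS1, dynein and dynactin, 24 were higher and 4 lower, 3 and 0 with an unadjusted p under 0.05, with a median of 0.05, and without PTU exposed pup 1, 21 were higher and 7 lower, 2 and 0 with such a p. The catalytic partners of LIS1 in its acetylhydrolase complex, *Pafah1b2* and *Pafah1b3*, differed by 0.05 and 0.08, and the dynein heavy chain *Dync1h1* by 0.08, while *Pafah1b1* differed by 0.37. Without PTU exposed pup 1, *Pafah1b2*, *Pafah1b3* and *Dync1h1* differed by -0.0067, 0.18 and 0.07. That contrast between genes was not itself tested. The dynactin subunit *Dctn3* was 202 ± 29.8 (SD) in control and 289 ± 65.2 (SD) in PTU exposed pups (0.50; limma, adjusted p = 0.174), and the dynein light chain *Dynlrb1* differed by -0.17 (adjusted p = 0.421).

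All 10 tested genes of the doublecortin family and neuronal microtubule proteins were higher, 3 with an unadjusted p under 0.05, with a median of 0.30, and 7 of 10 were higher without PTU exposed pup 1, again 3 with such a p. *Stmn1*, which encodes the tubulin-sequestering protein stathmin, was 15173 ± 1826 (SD) in control and 21013 ± 3501 (SD) in PTU exposed pups, 5 of which were above every control pup (0.46; limma, adjusted p = 0.122). It was called without PTU exposed pup 2 (adjusted p = 0.0305), the only pup whose omission gave a call in these lists. The doublecortin-like kinase *Dclk2* differed by 0.20 (adjusted p = 0.489), and by 0.13 to 0.29 with 1 pup left out, lowest without control pup 1 or PTU exposed pup 5.

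Of 12 CDK5 regulators and substrates, 10 were higher and 2 lower, 4 and 1 with an unadjusted p under 0.05, with a median of 0.24, and without PTU exposed pup 1 again 10 were higher and 2 lower, 2 and 1 with such a p. *Cdk5r2*, the other activator (p39), ran from 121 to 581 in control and from 233 to 1888 in PTU exposed pups (0.64; limma, adjusted p = 0.481), and 0.26 without PTU exposed pup 1. *Cables2*, a CDK-binding adaptor, ran from 552 to 669 and from 667 to 829, with 5 of 6 PTU exposed pups above every control pup (0.28; limma, adjusted p = 0.174). *Ppp1r1b*, which encodes the CDK5 substrate DARPP-32, was 640 ± 135 (SD) against 446 ± 118 (SD), below the mean of the controls in 6 of the 6 exposed pups (-0.53; limma, adjusted p = 0.175).

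Of 20 other lissencephaly and pachygyria genes tested, 15 were higher and 5 lower, 4 and 0 with an unadjusted p under 0.05, with a median of 0.08, and without PTU exposed pup 1, 14 were higher and 6 lower, 3 and 0 with such a p. *Actg1*, a cytoskeletal actin whose reads can be shared with near-identical actin copies, was 16779 ± 1158 (SD) and 20264 ± 1377 (SD) (0.27, limma adjusted p = 0.146). The adhesion receptor *Adgrg1* differed by -0.20 (limma, adjusted p = 0.363) and by -0.13 without PTU exposed pup 1. It differed by -0.0012 with each pup scaled to the same total, where all rows had a median of 0.204. *Ywhae*, which encodes the 14-3-3 protein that binds phosphorylated NDEL1, differed by -0.02. With each pup scaled to the same total, the differences of *Crk*, *Dynlrb1* and *Ywhae* turned positive, at 0.17, 0.04 and 0.18, below the median of all rows at that scaling.

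**Figure D5:**
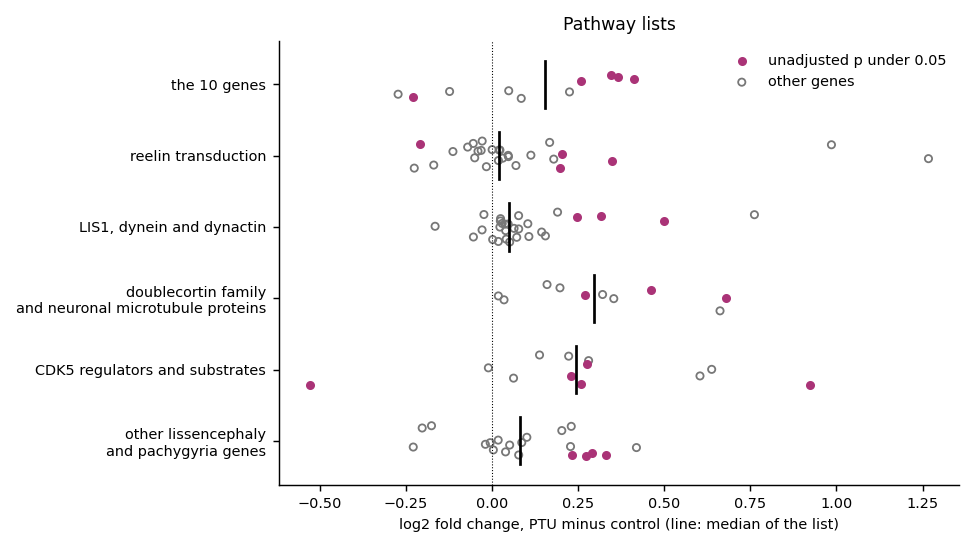
Log2 fold change (PTU exposed minus control, horizontal axis) of the 10 genes and of each gene of the 5 pathway lists, with a line at the median of each list. Filled points had an unadjusted p under 0.05 in limma, none had an adjusted p of 0.05 or less, and the medians ran from 0.02 for reelin transduction to 0.30 for the doublecortin family.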

How the data were processed

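RNA-Seq was done on microdissected VZ of 13 pups, 7 control and 6 PTU exposed. The authors trimmed reads with Trimmomatic, used STAR 2.7.8a for alignment to mRatBN7.2/rn7, and quantified by Partek expectation/maximization before median ratio scaling. The deposited values are thus a scaled signal, here termed normalized counts. The deposited columns of the authors' DESeq2 comparison hold a p-value, a ratio, a log2 ratio and a signed fold score; they were not used. RNA integrity was moderate by the study's methods, and its value per pup was not used here. The study names a RefSeq annotation, whereas the rows carry Ensembl identifiers. Transcript lengths were not used, so levels were not compared between genes.

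Members and gene lists were chosen with earlier results of these data known. After removal of rows whose mean was below 10, the log2 of the normalized count plus 1 was compared with limma 3.58.1 in R 4.3.3 (empirical Bayes, variance trend), with Benjamini-Hochberg adjustment over all 14606 rows and a threshold of 0.05. Exact permutation tests were two-sided over all 1716 regroupings (smallest possible p 0.000583), and relations used 100000 permutations within groups. Outside the 10 genes, genes are named if they are 1 of a set of fixed close partners or had the smallest p in either direction of a pathway list; marker genes of cell types are named where they check the tissue or the pup that stood apart, and *Elavl3* and *Elavl4* after their values were seen. A further gene that this rule names is not reported here and was taken out of the lists. Fits and tests were tested on simulated data. The other steps used scipy 1.17.1 and numpy 2.4.6 in Python 3.11.15.

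Each pup's depth was inferred from the spacing of its low values. Of values in the window from 20 to 150, 89.9 to 91.6% fell within 0.1 of a whole multiple, under the 95% set as the minimum, so no count model was used. Lowest to highest estimated reads per pup were 268 to 628 for *Cdk5*, the lowest of the 10 genes, and 20470 to 44760 for *Dcx*. Alternatives were pseudocounts of 0.1 and 10, no filter or a mean of 100, scaling to the same total, quantile normalization, array weights, no variance trend, summed rows of a gene, a replicate block and leaving out each pup. The pathway lists were put through them by a choice made after seeing the data. Replicate numbers belong to pups of different litters.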

Additional observations from a re-analysis of the deposited data

Results flagged for a closer look

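Of 88 groups of values checked for a pup far from the others of its group, 5 were marked, where chance marks about 1 in 20, and all 5 were PTU exposed pup 1. That pup was the highest of its group for *Reln* (7593 normalized counts), *Dab1* (1825) and the Cajal-Retzius marker score (1.80), and the lowest for the interneuron and precursor marker score (-0.62) and the mitosis marker score (-0.52).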

How the results depend on the processing

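The count of rows called was 0 over all 13 pups and 40 with array weights, 18 with the replicate block, and 0 to 179 when 1 pup was left out (179 without PTU exposed pup 2 and 7 without control pup 6). Of the 10 genes, 0 were called and 0 to 1 when a pup was left out; 5 had an unadjusted p under 0.05 (limma), 3 without a variance trend and 3 to 5 when a pup was left out. Of the pathway genes, limma called 0 over all 13 pups and 0 to 1 when a pup was left out. When 1 pup was left out, the *Cdk5r1* to *Cdk5* difference ran from 0.43 to 0.61 and the *Lrp8* to *Vldlr* difference from -0.71 to -0.38, each with an adjusted exact permutation p of 0.05 or less only without PTU exposed pup 2. Replicate numbers belong to pups of different litters and were not treated as pairs, although deviations of same-numbered pups correlated above 0.1 in 4 of 6 cases (-0.07 to 0.20); 3 control and 2 PTU exposed pups correlated best with their own number. The replicate block gave 5 of the 10 genes an unadjusted p under 0.05 (limma), called none of them, and gave *Pafah1b1* a log2 fold change of 0.41 with a limma adjusted p of 0.0675.

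Directions reversed as follows. With array weights *Reln* and *Dab1* had log2 fold changes of -0.060 and -0.0597. With each pup scaled to the same total, where all rows had a median of 0.204, *Cdk5* was 0.0781, *Crk* 0.170, *Dynlrb1* 0.0362 and *Ywhae* 0.18. At that scaling the *Vldlr* relation with mitosis had r = 0.212. When 1 pup was left out, *Reln* ran from -0.15 to 0.37, *Dab1* from -0.21 to 0.14, *Crk* from -0.0815 to 0.0157, *Crkl* from -0.00152 to 0.0793, *Pafah1b2* from -0.00674 to 0.0864, *Pafah1b3* from -0.0447 to 0.181 and *Ywhae* from -0.0492 to 0.0205. The causes were not tested beyond the pups named. *Vldlr*, *Lrp8*, *Dcx*, *Pafah1b1*, *Nde1*, *Ndel1* and *Cdk5r1* had the same sign in all 23 settings tried, with *Lrp8* at -0.03 with each pup scaled to the same total.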
